A study of Homo sapiens with 6 samples.

Results

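The Notch genes examined here are 4 receptors (NOTCH1, NOTCH2, NOTCH3 and NOTCH4), 4 ligands (JAG1, JAG2, DLL1 and DLL3) and 2 transcriptional targets (HES1 and HEY1). They were chosen by name, and each of the 10 matched a single row among the 58870 genes of the count table. Expression was measured by RNA sequencing in the human melanoma cell line WM164, with 3 libraries from cells overexpressing GFP (green fluorescent protein, the control) and 3 from cells overexpressing T-MGM, as the labels have it. T-MGM is a tethered dimer in which the melanoma isoform of MITF, the melanocyte lineage transcription factor, is followed by a flexible linker and MAFG, a small MAF protein that has no transactivation domain of its own. Per the study's methods, constructs were expressed from the EF1α promoter of a lentiviral vector in cells selected with blasticidin, and the control vector of that series carries GFP in place of the insert. All cells were kept in RPMI with fetal bovine serum. Neither the labels nor the methods say whether the 3 libraries of a group came from separate cultures or transductions, so p-values measure the spread between these libraries, which may be technical.

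Notch receptors are single-pass membrane proteins that are activated by contact with a ligand on a neighbouring cell. Ligand pulling exposes a site for an ADAM protease, gamma-secretase then releases the intracellular domain, and this domain joins RBPJ and a Mastermind protein in the nucleus to switch on genes of the HES and HEY families, which encode transcriptional repressors. In melanocytes the pathway maintains the stem cells of the hair follicle, and it has been linked to growth and invasion in melanoma.

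Total counts were 35057239 to 38738065 in the GFP libraries and 44577774 to 59250663 in the T-MGM libraries, so depth differed between the groups, and a floor of 3 counts lies at 0.0506 to 0.0856 CPM, which allows for counting error alone. Of 9 melanocytic markers, 8 were at 1 TPM (a level scaled for transcript length and depth) or more in every library, and TYRP1 was the exception. Their summed level was 1163 to 1185 TPM in GFP and 989 to 1026 TPM in T-MGM. The median gene was itself lower in T-MGM on this scale, at a log2 fold change of -0.15 with TPM plus 0.1. Of the markers of other cell types, those reaching 1 TPM in every library were LUM of 7 fibroblast markers and KRT10 of 5 keratinocyte markers, and none of 5 endothelial or 5 immune markers did. The summed levels were 4.15 to 4.69 and 4.56 to 6.74 TPM for fibroblasts, 20.4 to 21.9 and 19.6 to 21.3 TPM for keratinocytes, 0.22 to 0.37 and 0.18 to 0.29 TPM for endothelium, and 0.96 to 1.3 and 0.31 to 0.69 TPM for immune cells, in GFP and T-MGM respectively. The part of these differences in the results below was not tested, and in bulk RNA fewer cells of a type and less RNA per cell cannot be told apart. Neither MAFG (log2 fold change -0.06, DESeq2 adjusted p of 0.236) nor MITF (0.08, DESeq2 adjusted p of 4.8e-07) was raised enough to check the labels. Mean levels in GFP and T-MGM were 9.88 and 8.48 TPM for MAFG and 138 and 133 TPM for MITF. A strong rise of either construct gene was thus not seen, and the reason was not tested. Every direction below therefore rests on the labels, and T-MGM means the libraries labelled so.

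The first question was which Notch genes these melanoma cells transcribe. On the TPM scale of the authors, NOTCH2 stood highest, at 44.7 ± 0.938 TPM in GFP libraries (SD, n = 3), followed by HEY1 at 20.1 ± 1.13, HES1 at 11.4 ± 0.458, JAG1 at 9.10 ± 0.136, NOTCH1 at 4.50 ± 0.182 and DLL3 at 2.16 ± 0.186 TPM. The ranges of neighbours in this order did not overlap among those 6 genes in GFP. NOTCH4, JAG2, DLL1 and NOTCH3 had means of 0.263, 0.137, 0.0733 and 0.0133 TPM, and each of these ranges overlapped the next. In T-MGM the same order held except that DLL3, at 4.66 ± 0.426 TPM, stood above NOTCH1 at 3.56 ± 0.137 TPM. HEY1, at 10.2 ± 0.199 TPM, and HES1, at 10.1 ± 0.242 TPM, now had overlapping ranges, whereas those of NOTCH4, JAG2, DLL1 and NOTCH3 no longer overlapped. NOTCH2 remained highest at 38.2 ± 0.785 TPM and JAG1 was at 8.13 ± 0.474 TPM. TPM values are relative to all other RNA in a library, and RN7SL1, the RNA of the signal recognition particle, took 13.4% to 13.8% of them in GFP and 15.8% to 16.1% in T-MGM. The median gene was at a log2 fold change of -0.15 with TPM plus 0.1, so changes were taken from the counts.

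Whether the T-MGM libraries differed from the GFP libraries was then tested with DESeq2 over all genes. Benjamini-Hochberg adjustment was over the 19135 genes that kept an adjusted p. All 10 Notch genes were among these. At an adjusted p of 0.05 or less, 4 of the 10 passed, where 38.4% of all genes tested did. HEY1, NOTCH1 and NOTCH2 were lower in T-MGM, where 19.2% of genes passed downwards, and DLL3 was higher, where 19.2% passed upwards. DLL3 alone also exceeded a 2-fold change, a call made for 4.63% of all genes and for 3.26% upwards. The 3 GFP and 3 T-MGM values were fully apart for 6 of the 10 genes, the 4 that passed plus NOTCH4 and JAG2, and for 46.8% of genes tested. The median log2 fold change was 0.06 over the 10 genes and -0.0027 over all genes tested. The share of Notch genes that passed was thus close to that of the transcriptome, and what follows describes the single genes.

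**Figure D1:**
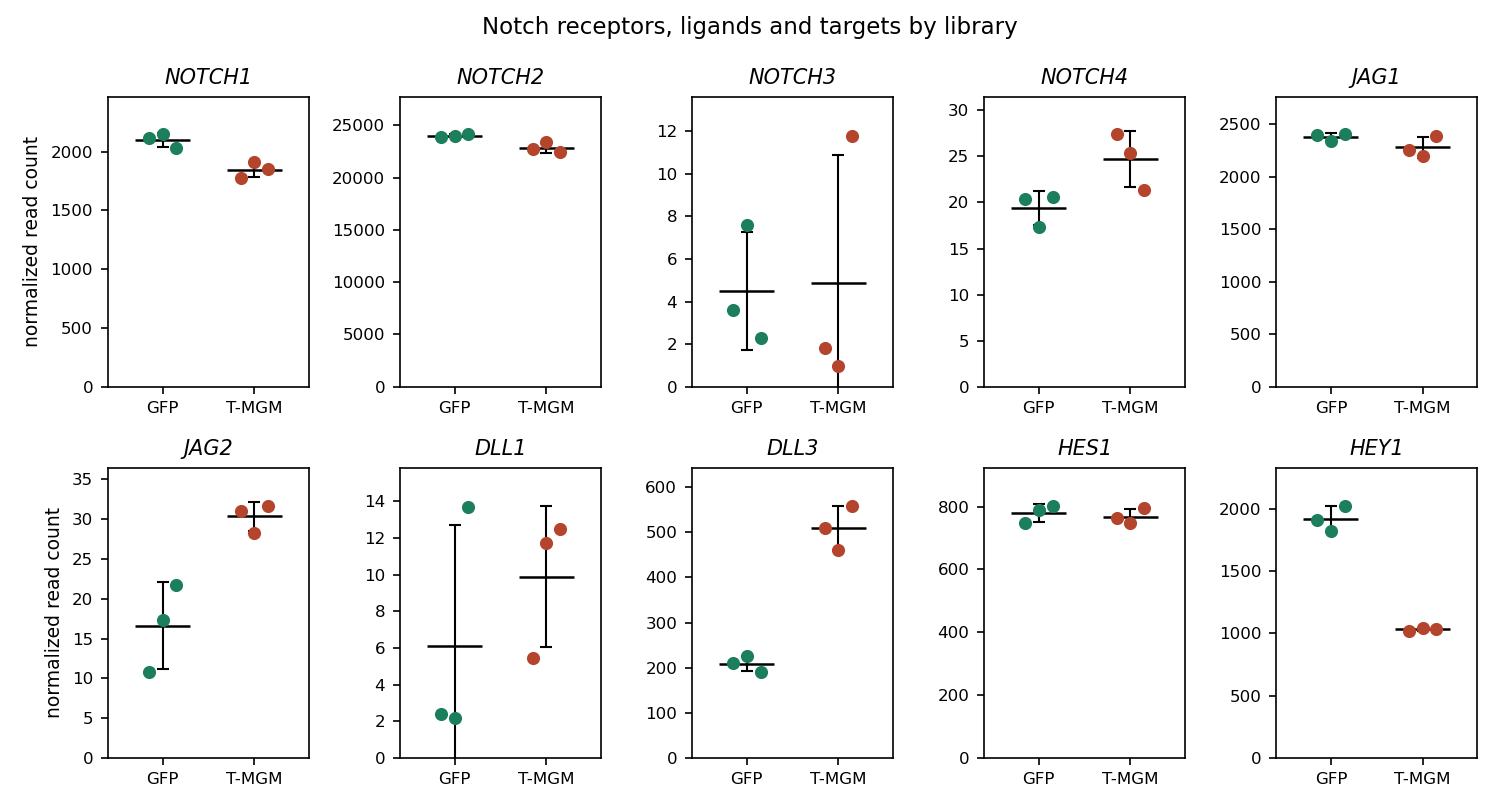
Normalized read counts of the 10 Notch genes in 3 GFP (green) and 3 T-MGM (red) libraries. Each point is a library, horizontal lines are group means, error bars are SD, and each panel has its own linear axis from 0. DLL3 is higher and HEY1, NOTCH1 and NOTCH2 are lower in every T-MGM library, while JAG1 and HES1 overlap.

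DLL3 encodes an atypical Delta-like ligand that is thought to act within the same cell to restrain Notch rather than to activate it on a neighbour, and it is best known from neuroendocrine tumours. DLL3 (ENSG00000090932.10; GRCh38 chromosome 19, 39498895 to 39508481, plus strand) had 210, 225 and 191 normalized counts in GFP replicates 1 to 3 and 510, 460 and 559 in T-MGM replicates 1 to 3. Every T-MGM library thus lay above every GFP library. The means were 209 ± 17.3 and 509 ± 49.5 (SD over 3 libraries each), a 2.45-fold increase (95% limits 2.09 to 2.86) and a log2 fold change of 1.29 (adjusted p = 8.85e-28 with DESeq2, SE 0.12). No annotated gene overlaps DLL3 on either strand. Leaving out each library in turn gave log2 fold changes of 1.22 to 1.36. The log2 fold change was 1.12 after correction for GC content and transcript length, where the longest DLL3 transcript is 64.9% GC. On the TPM scale it was 1.08 with a pseudocount of 0.1 and 0.84 with a pseudocount of 1, the latter under 2-fold. Relative to the median gene these values were 1.23 and 0.97. A test against a 2-fold change, adjusted over all genes, did not pass (DESeq2 adjusted p of 0.793). The 95% limits above, which are not adjusted for the number of genes, lay over 2-fold. An increase was thus measured, but in that test not one shown to exceed 2-fold.

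The other ligands did not pass. JAG1 (ENSG00000101384.12; chromosome 20, 10637684 to 10673999), the Jagged ligand with the highest level here, had 2400, 2335 and 2403 normalized counts in GFP against 2258, 2193 and 2384 in T-MGM libraries. The third T-MGM library fell inside the GFP range. The log2 fold change was -0.06 (adjusted p = 0.268 with DESeq2, SE 0.04), with 95% limits of -0.14 to 0.02, and it passed downwards only with total-count scaling (-0.11, DESeq2 adjusted p of 0.0156). Counted within a library, and so free of depth scaling, DLL3 reads amounted to 0.0875, 0.0964 and 0.0794 of JAG1 reads in GFP, but to 0.226, 0.21 and 0.234 in T-MGM replicates 1 to 3. These ratios do not overlap between groups and were not tested.

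JAG2 (chromosome 14, 105140982 to 105168824), the other Jagged ligand, was near the limit of detection, with raw counts of 9, 16 and 19 in GFP and 34, 29 and 43 in the more deeply sequenced T-MGM libraries. After scaling for depth these were 10.8, 17.3 and 21.7 against 31, 28.3 and 31.7 normalized counts, and the groups did not overlap. The log2 fold change of 0.87 (SE 0.43) had an unadjusted p of 0.0433 and a DESeq2 adjusted p of 0.101, and so did not pass. Its TPM values overlapped, at 0.05 to 0.28 in GFP and 0.12 to 0.2 in T-MGM. DLL1 (chromosome 6, 170282206 to 170306565), an activating Delta ligand, had raw counts of 2, 2 and 12 in GFP against 6, 12 and 17 in T-MGM, and no difference was detectable at this depth (log2 fold change 0.71, adjusted p = 0.572 with DESeq2, SE 0.83). The DLL1 value rests on GFP replicate 3, without which it was 2.13 (DESeq2 adjusted p of 0.128). FAM120B lies on the opposite strand over part of DLL1 and had 968 to 1821 counts per library, so a few DLL1 reads could not be assigned with certainty. DLL4, the endothelial Delta ligand, had 10 to 30 raw counts in any library and a log2 fold change of 0.24 (adjusted p = 0.771 with DESeq2, SE 0.50).

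Among the receptors, NOTCH2, the receptor most abundant in these cells, had 23940, 24004 and 24153 normalized counts in GFP against 22754, 23420 and 22445 in T-MGM libraries. All T-MGM libraries lay below all GFP libraries, but by little. The means were 24032 ± 109 and 22873 ± 498 (SD over 3 libraries each), a log2 fold change of -0.07 (adjusted p = 6.34e-05 with DESeq2, SE 0.02) with 95% limits of -0.10 to -0.04. The 74 other genes measured within 10 Mb of NOTCH2 (chromosome 1, 119911553 to 120100779) had a median of -0.13, and after GC and length correction NOTCH2 and its neighbours were both at -0.08. The small lower level of NOTCH2 was therefore no larger than that of the surrounding chromosome, and the part of the region in it was not tested. NOTCH2 shares near-identical sequence with the NOTCH2NL genes, of which the table holds NOTCH2NLA under this name. NOTCH2NLA fell from 987 ± 21.6 to 742 ± 44.2 normalized counts (SD over 3 libraries each), a log2 fold change of -0.41 (adjusted p = 3.77e-09 with DESeq2, SE 0.07). Reads of NOTCH2NLA are uncertain because of this likeness and because NBPF10 overlaps it. The 170 other genes measured within 10 Mb of NOTCH2NLA had a median of -0.22. After GC and length correction NOTCH2NLA was at -0.29 and these neighbours at -0.27, and the part of the region in its fall was not tested. The ratio of NOTCH2 to NOTCH2NLA reads was 23.9 to 24.7 in GFP and 29.6 to 31.7 in T-MGM libraries.

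NOTCH1 (ENSG00000148400.11; chromosome 9, 136494433 to 136546048, minus strand) had 2120, 2148 and 2030 normalized counts in GFP against 1780, 1912 and 1851 in T-MGM libraries, again without overlap. It fell from 2099 ± 61.9 to 1848 ± 66.3 (SD over 3 libraries each), a log2 fold change of -0.18 (adjusted p = 0.000116 with DESeq2, SE 0.04). Its 154 chromosomal neighbours had a median of 0.12. The GC content of the longest NOTCH1 transcript is 63.3%, and after correction for GC content and length its fall was larger, at -0.35 (DESeq2 adjusted p of 3.92e-15), with neighbours at -0.01. In every alternative fit run, NOTCH1 was lower, between -0.35 and -0.16 on the log2 scale, and it failed the threshold solely in the test against a 2-fold change. The ratio of NOTCH2 to NOTCH1 reads was 11.3, 11.2 and 11.9 in GFP against 12.8, 12.2 and 12.1 in T-MGM replicates 1 to 3.

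The remaining receptors were scarcely transcribed. NOTCH3 (chromosome 19, 15159038 to 15200995), typical of vascular smooth muscle, had raw counts of 3, 7 and 2 in GFP against 2, 1 and 16 in T-MGM libraries, and its fold change took either sign depending on T-MGM replicate 3, at 0.15 (adjusted p = 0.942 with DESeq2, SE 1.11) with it and -1.68 without it. NOTCH4 (chromosome 6, 32194843 to 32224067), typical of endothelium, had 17, 16 and 18 raw counts in GFP against 30, 26 and 29 in T-MGM. Normalized, these were 17.3 to 20.6 and 21.4 to 27.4, and the log2 fold change of 0.34 (adjusted p = 0.594 with DESeq2, SE 0.43) did not pass although the groups did not overlap. GPSM3 overlaps NOTCH4 on the same strand and had 289 to 346 counts in GFP and 628 to 820 in T-MGM libraries, so reads at the shared part cannot be told apart.

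**Figure D2:**
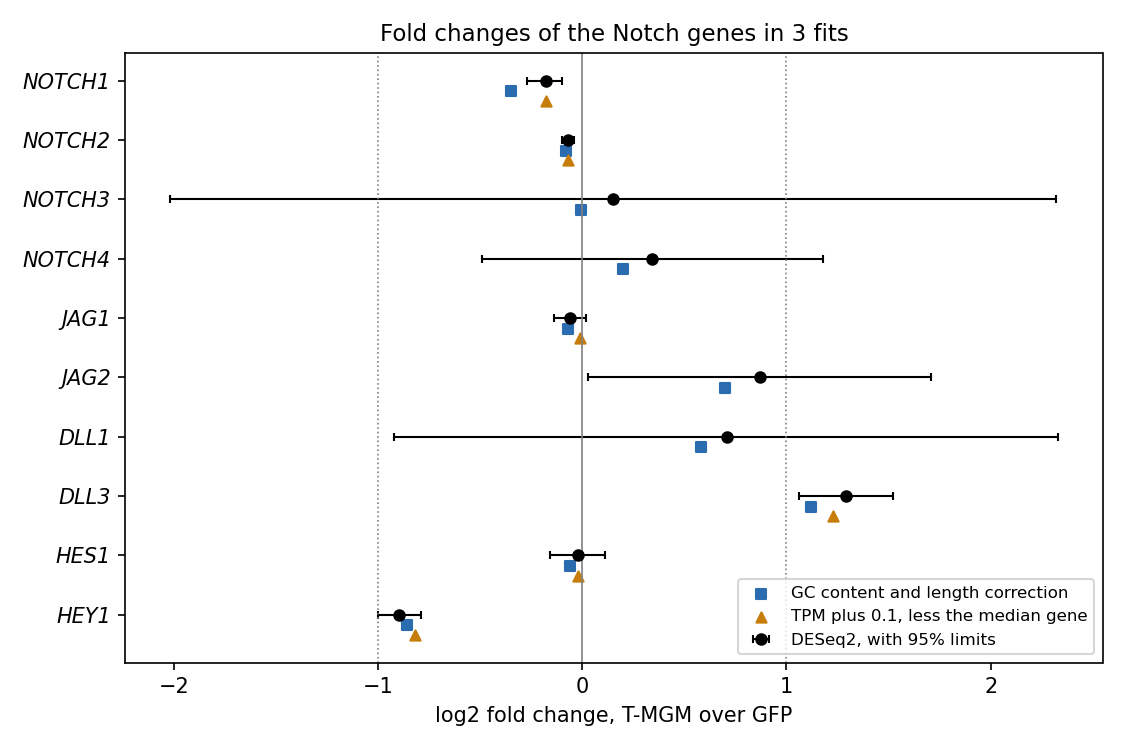
Log2 fold changes of T-MGM over GFP for the 10 Notch genes. Black points are DESeq2 estimates with 95% limits, blue squares the estimates after GC content and length correction, and orange triangles the TPM estimates less the median gene, drawn for the 6 genes that pass the TPM filter; dotted lines mark a 2-fold change. DLL3 at 1.29 and HEY1 at -0.90 stand apart, and the limits of the scarce genes NOTCH3, NOTCH4, JAG2 and DLL1 are wide.

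HEY1 encodes a basic helix-loop-helix repressor that is switched on directly by active Notch in many cell types. It gave the smallest adjusted p of the 10 genes. HEY1 (ENSG00000164683.17; chromosome 8, 79762371 to 79767857, minus strand) had 1909, 1824 and 2027 normalized counts in GFP against 1017, 1047 and 1033 in T-MGM libraries. The 3 T-MGM libraries lay close together and far below GFP. It fell from 1920 ± 102 to 1032 ± 14.8 (SD over 3 libraries each), 1.86-fold lower (95% limits 1.73 to 2), a log2 fold change of -0.90 (adjusted p = 2.5e-64 with DESeq2, SE 0.05). It was not called, since the estimate is under 2-fold. GC and length correction gave -0.86, and leaving out each library in turn gave -0.93 to -0.85. On the scale of TPM plus 0.1 it was -0.97, or -0.82 relative to the median gene. Its 44 measured neighbours within 10 Mb had a median of -0.08, and no annotated gene overlaps it.

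HES1 (ENSG00000114315.4; chromosome 3, 194136148 to 194138732), the best known Notch target and a repressor that also oscillates through its own feedback, did not pass. It had 748, 790 and 803 normalized counts in GFP against 762, 747 and 794 in T-MGM libraries, which overlap. The log2 fold change was -0.02 (adjusted p = 0.848 with DESeq2, SE 0.07) with 95% limits of -0.16 to 0.11. Its TPM values passed downwards (-0.17; limma adjusted p of 0.0421), where the value relative to the median gene was -0.02. HEY1 reads amounted to 2.55, 2.31 and 2.52 times those of HES1 in GFP, but to 1.34, 1.4 and 1.3 times in T-MGM replicates 1 to 3. This ratio is taken within a library and was lower in every T-MGM library than in any GFP library.

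The HES1 promoter is shown because it carries the letters that RBPJ recognises, TGGGAA, which were searched on both strands of the 250 bases before the start site. Of the 10 Notch genes, 7 matched a promoter in the RefSeq table (GRCh38.p14); DLL1, DLL3 and HEY1 did not. HES1 held 2 matches, both on its own strand, at 84 to 79 and at 70 to 65 bases before the start. The other 6 promoters held none, and 20.8% of all 35116 promoters in the table hold at least 1. E-box letters CACGTG (in 6.34% of all promoters) and CATGTG (9.42%), as bound by MITF, were in none of the 7. The AP-1 letters TGANTCA (6.57%), which lie within the longer MAF recognition element (in none of the promoters in the table), were found once, in NOTCH4, on its own strand at 18 to 12 bases before the start. Capitals mark the matches, chr3:194135898-194136147 on the plus strand for HES1 and chr6:32224068-32224317 on the minus strand for NOTCH4. A match describes letters and not binding.
HES1: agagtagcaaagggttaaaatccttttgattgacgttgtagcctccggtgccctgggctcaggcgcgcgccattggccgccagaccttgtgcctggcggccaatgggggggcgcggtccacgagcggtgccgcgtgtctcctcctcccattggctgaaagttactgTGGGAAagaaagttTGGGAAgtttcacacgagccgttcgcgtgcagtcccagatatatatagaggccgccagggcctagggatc
NOTCH4: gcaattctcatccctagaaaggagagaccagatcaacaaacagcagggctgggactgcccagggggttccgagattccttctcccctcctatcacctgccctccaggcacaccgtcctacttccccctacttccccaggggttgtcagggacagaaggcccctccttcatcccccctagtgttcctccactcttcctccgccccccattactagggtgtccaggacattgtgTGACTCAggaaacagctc

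**Figure D3:**
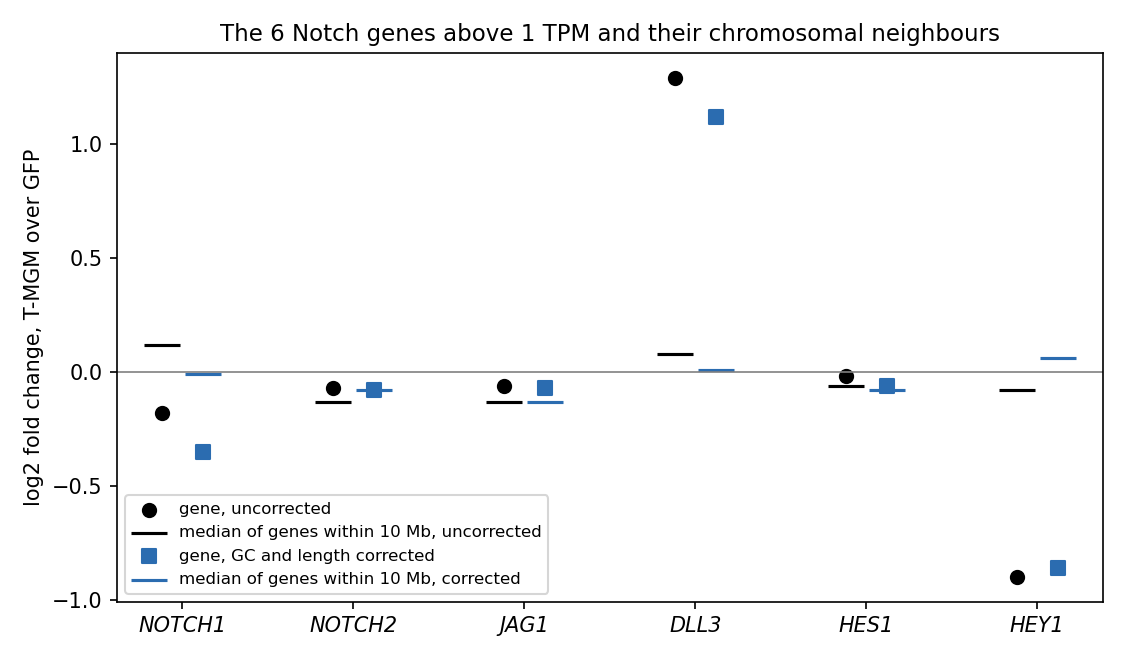
Log2 fold changes of the 6 Notch genes above 1 TPM (points) and the median of the other genes within 10 Mb that have a mean normalized count of at least 50 (dashes), uncorrected in black and after GC content and length correction in blue. NOTCH2, JAG1 and HES1 lie within 0.07 of their neighbours in both versions, while DLL3, HEY1 and NOTCH1 lie apart from theirs.

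The rest of the pathway was described with a list of 79 genes by role, the 10 genes above included, of which 76 were in the table under the names used and 68 kept an adjusted p. Of these, 33 passed, 15 higher and 18 lower, and 3 also exceeded 2-fold (DLL3, APH1B and DNER). The pass rate was 48.5%, against 38.4% of all genes tested, and the median log2 fold change was 0.04. With a filter of 10 counts in every library, 32 of 60 pathway genes passed, against 6758 of 14166 over all genes. The difference in pass rate was not tested. With total-count scaling the split was 11 higher and 25 lower. In the TPM fits with a filter it was 5 higher and 23 lower, where the median gene itself was lower. Without the 10 genes above, 29 of 58 passed, 14 higher and 15 lower.

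Among other targets, HEY2, the paralog of HEY1 known from heart and vessel development, moved the opposite way. It had 1411, 1343 and 1212 normalized counts in GFP against 1695, 1541 and 1563 in T-MGM libraries. It rose by a log2 fold change of 0.28 (adjusted p = 8.92e-06 with DESeq2, SE 0.06). In the TPM fits it did not pass (0.13 on the scale of TPM plus 0.1, limma adjusted p of 0.217). Relative to the median gene it was at 0.28 on that scale. HEY1 reads were 1.35 to 1.67 times those of HEY2 in GFP and 0.6 to 0.68 times in T-MGM. HES6, a HES family member that opposes HES1, fell by 0.44 on the log2 scale (adjusted p = 2.59e-05 with DESeq2, SE 0.10). CCND1, which encodes cyclin D1 and answers to many pathways, rose by 0.45, and its 261 neighbours within 10 Mb had a median of 0.22. TRIB2, a pseudokinase gene, rose by 0.29 on the log2 scale. MYC did not pass (0.02; DESeq2 adjusted p of 0.599) and neither did HES4 (0.28; adjusted p of 0.166), HES2 (0.82; adjusted p of 0.701) or HES7 (0.09; adjusted p of 0.922). NRARP, a feedback inhibitor often used as a Notch readout, had at most 2 counts in any library, HEYL at most 7, and HES5 and GPR183 none, which allows at most 3 counts per library.

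The genes for receptor and ligand cleavage gave 5 passing genes of 9, 4 higher and 1 lower. Of all genes tested 38.4% passed, 19.2% in each direction. FURIN, which cuts the receptor on its way to the surface, rose from 4747 ± 39.5 to 6945 ± 94.6 normalized counts (SD over 3 libraries each), a log2 fold change of 0.55 (adjusted p = 1.09e-102 with DESeq2, SE 0.03). Of the gamma-secretase subunits, NCSTN (nicastrin) rose by 0.24 and PSENEN by 0.48, while APH1A, the main APH1 subunit, fell by 0.38 on the log2 scale (adjusted p = 4.4e-16 with DESeq2, SE 0.05). In the TPM fits NCSTN was at 0.14 and missed the threshold (adjusted p between 0.0811 and 0.195 with limma). Relative to the median gene NCSTN was at 0.29 on TPM plus 0.1. All 3 overlap another annotated gene, such as COPA on the opposite strand of NCSTN. The alternative subunit APH1B had 12, 28.2 and 16 normalized counts in GFP against 122, 117 and 99.6 in T-MGM libraries, a log2 fold change of 2.58 (adjusted p = 5.32e-16 with DESeq2, SE 0.31). The TPM values of APH1B overlapped, at 0.24, 0.55 and 0.08 in GFP against 0.54, 0.68 and 0.43 in T-MGM, and did not pass on the scale of TPM plus 0.1 (0.91; limma adjusted p of 0.185). The cause of this difference between the tables was not tested. The sheddase genes ADAM10 and ADAM17 did not pass, at log2 fold changes of 0.05 and -0.02, but both passed upwards after GC and length correction, at 0.20 (DESeq2 adjusted p of 1.59e-16) and 0.11 (DESeq2 adjusted p of 0.0355). ADAM10 also passed with edgeR (0.06, adjusted p of 0.0475).

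In the nuclear complex, RBPJ itself was at -0.0024 on the log2 scale (adjusted p = 0.964 with DESeq2, SE 0.03), but passed upwards after GC and length correction (0.15, DESeq2 adjusted p of 8.5e-07). Of 7 genes on the activating side 4 passed, all by small amounts: EP300 (0.07) and MAML2 (0.11) were higher and SNW1 (-0.11) and KAT2B (-0.15) lower on the log2 scale. These small changes depended on the processing. KAT2B was at -0.05 after GC and length correction and did not pass (DESeq2 adjusted p of 0.403). Scaling by total counts left EP300 (0.02) and MAML2 (0.06) short of the threshold, and both took the opposite sign in the TPM fits. The median gene was also lower there, and relative to it EP300 was at 0.07 and MAML2 at 0.10 on TPM plus 0.1. On the repressing side 6 of 10 passed, 5 of them lower. Of all genes tested, 38.4% passed and 19.2% passed downwards, and neither side was tested as a group. SPEN, the corepressor that RBPJ recruits in the absence of Notch, fell from 19067 ± 376 to 14106 ± 157 normalized counts (SD over 3 libraries each), a log2 fold change of -0.43 (adjusted p = 1.41e-128 with DESeq2, SE 0.02) against a median of -0.19 for its 158 neighbours. TLE1, a Groucho corepressor used by HES proteins, also fell by 0.43 and CIR1, a corepressor that binds RBPJ, by 0.39 on the log2 scale. The 41 neighbours of TLE1 had a median of -0.15 and the 75 neighbours of CIR1 a median of -0.28. HDAC1 fell by 0.17 and KDM5A by 0.07 on the log2 scale, with neighbours at medians of -0.08 and 0.08. KDM5A just passed (adjusted p = 0.0475 with DESeq2) and was at 0.00056 after GC and length correction. TLE3 rose by 0.13, was at 0.03 after GC and length correction (DESeq2 adjusted p of 0.622) and took the opposite sign in TPM values. Relative to the median gene TLE3 was at -0.0049 on TPM plus 0.1.

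DNER, a non-canonical ligand found in neurons, was the sole gene of the list called downwards. It had 121, 119 and 143 normalized counts in GFP against 35.6, 48.8 and 54.6 in T-MGM libraries, without overlap. The log2 fold change was -1.46 (adjusted p = 1.34e-09 with DESeq2, SE 0.23), and on the scale of TPM plus 1 it was -0.52, since its level was at most 0.9 TPM. Transcripts annotated on the opposite strand lie over DNER, and reads from them cannot be told apart where the libraries carry no strand. With shrunken fold changes it was at -0.84 and so under 2-fold, which left no gene of the list called downwards. Of the 4 non-canonical ligand genes tested, DNER included, 2 passed, 1 higher and 1 lower. Of the remaining roles, 2 of 5 genes for receptor glycosylation, 1 of 4 for ligand endocytosis and 4 of 9 for receptor turnover passed. None of them was called as changed over 2-fold, and 38.4% of all genes tested passed.

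**Figure D4:**
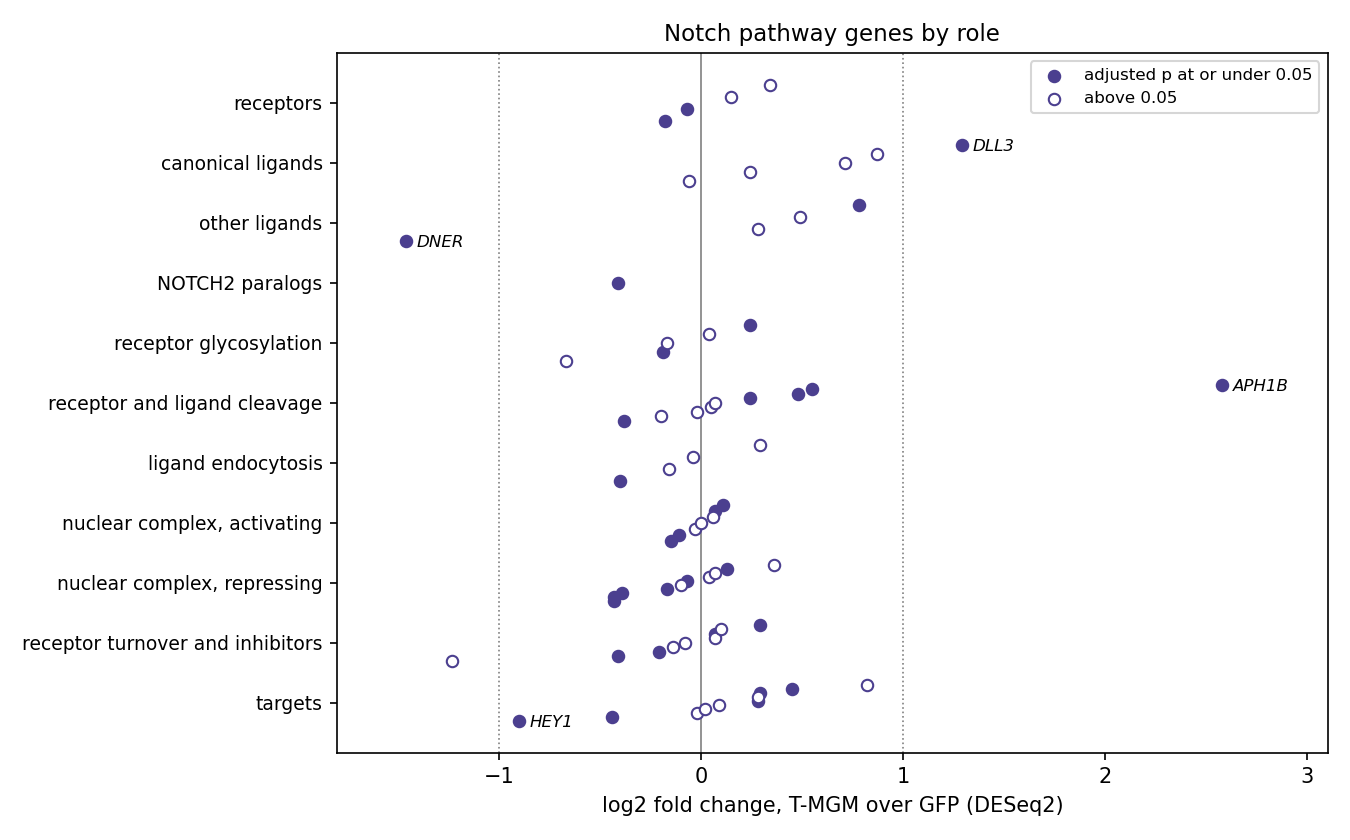
Log2 fold changes of T-MGM over GFP (DESeq2) for the 68 Notch pathway genes with an adjusted p, grouped by role. Filled points have an adjusted p at or under 0.05, open points do not, dotted lines mark a 2-fold change, and passing genes beyond 0.8 are named. DLL3 and APH1B exceed 2-fold upwards, DNER exceeds it downwards, and HEY1 lies just inside the lower line.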

How the data were processed

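Per the labels and the study's methods, the authors trimmed reads with cutadapt 1.8.1, aligned them to GRCh38 with STAR 2.7.7a and assigned unique alignments to genes with featureCounts. The deposited table holds raw whole-number counts, with a column for each library. The authors also deposited TPM values made with RSEM 1.3.0. The annotation release is not given in the sources used here. The labels name a library kit without strand information and the methods one with it, so overlapping genes are uncertain.

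Counts were compared with DESeq2 1.42.0 in R 4.3.3, the test of the study's methods: group as the only term, median-of-ratios size factors, 2-sided Wald test, independent filtering at 0.05. A gene passed at an adjusted p of 0.05 or less and was called if also changed over 2-fold. Fold changes are T-MGM over GFP. The alternatives were edgeR 4.0.16, TMM or total-count scaling, filters of 10 counts, independent filtering switched off, a block for replicate number, lowess offsets for GC content and transcript length (span 0.3), each library left out, a test against 2-fold, shrunken fold changes, and limma 3.58.1 on log2 of TPM plus 1 or 0.1 with or without a minimum of 0.5 TPM in 3 libraries. GENCODE release 44 (GRCh38) gave positions, overlaps, GC content and lengths for 99.4% of identifiers; promoters are from RefSeq. The 10 genes and all lists were chosen with earlier results of these data known. Besides the 10 genes, the text names from the pathway list the called genes, the 3 highest and 3 lowest fold changes among passing genes of mean normalized count at least 100, the receptor paralogs, canonical ligands and targets, and the passing genes of the nuclear complex and proteases; MAFG and MITF were named as construct genes; RBPJ, RN7SL1, ADAM10, ADAM17 and overlapping genes were named after their values were seen. On counts simulated for 32338 genes, 200 genes of mean normalized count at least 100 were altered by a fixed amount over 2-fold. DESeq2 called 99% of the altered genes and 15 others. Smaller changes and scarcer genes, as among the 10 Notch genes, were not covered.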

Additional observations from a re-analysis of the deposited data

How the results depend on the processing

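Of the 10 Notch genes, 4 passed in the fits as reported, and 4 or 5 in every alternative except the test against a 2-fold change (0). That test left 0 Notch genes and 1 pathway gene called or passing (APH1B), and 205 genes in all, both passing and called. Without one library, the numbers were 4 Notch genes passing and 1 called in each of the 6 fits, 30 to 34 passing and 3 called in the pathway list, and 6461 to 6623 passing and 765 to 810 called over all genes. On TPM plus 1, with or without the filter, 0 Notch genes and 0 pathway genes were called, with 133 and 126 genes called in all; TPM plus 0.1 gave 369, 10 counts in every library 493 and shrunken fold changes 207, and 4295 genes passed without the TPM filter, 937 higher and 3358 lower. Over all genes 3675 passed in each direction as reported, 2926 higher and 4635 lower with total-count scaling, and 1154 and 4360 on TPM plus 1. The causes were not tested.
NOTCH3 changed sign with the replicate block (-0.46), after GC correction (-0.0047), with both (-0.62), in TPM values (-0.0048) and without GFP replicate 3 or T-MGM replicate 3 (-1.68 to 0.76 over such fits), as did DLL1 in TPM values (-0.02); neither passed as reported. In TPM values (plus 1, plus 0.1 and unfiltered) the sign also turned for MAML2 (-0.05 in each), EP300 (-0.08), TLE3 (-0.15, -0.16 and -0.15) and MYC (-0.17), the last also with total-count scaling (-0.04) and within the fits without one library (-0.01 to 0.03). The median gene itself was at -0.13 on TPM plus 1 and -0.15 on TPM plus 0.1. KDM5A turned after GC correction (0.00056, and 0.00087 with the block), HES4 with GC correction and block (-0.01), HES2 in unfiltered TPM values (-0.0045), and HES7 after GC correction (-0.09, and -0.06 with the block) and without one library (-0.20 to 0.40). MAML2 did not pass without GFP replicate 3 or T-MGM replicate 2, and KDM5A without GFP replicate 2 or 3 or T-MGM replicate 2 or 3, with DESeq2 adjusted p up to 0.089 and 0.366. MAML2 also did not pass with the replicate block (DESeq2 adjusted p of 0.0507), SNW1 and KAT2B with the block and GC correction (0.138 and 0.563), TLE3 with total-count scaling (0.0957), or PSENEN and KAT2B in unfiltered TPM values (limma adjusted p of 0.115 and 0.0594). The fifth Notch gene to pass was JAG1 with total-count scaling and HES1 on TPM plus 1 and plus 0.1.
Same-numbered libraries did not deviate together (r of -0.058 to 0.029 across genes, against -0.089 to 0.092 for the other pairs). Pairing by number was thus not detected, but these values cannot show that it was absent. With the replicate block 4 Notch genes passed and 1 was called, and 29 pathway genes passed; with the block and GC correction these were 4, 1 and 33. Over all genes the block gave 6099 passing and 735 called. Depth limits NOTCH3, NOTCH4, JAG2 and DLL1, whose mean normalized counts were at most 30.3 in either group.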
